A study of Mus musculus with 62 samples.

Results

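The diaphragm muscle of mice carrying a melanoma that does not cause cachexia was compared between 8 and 4 weeks after injection of the tumor cells. Cachexia is the wasting of muscle and fat that accompanies many tumors. The 10 libraries, 5 mice at each time, were chosen by treatment and time from the 62 libraries of a series that covers 12 conditions. The question was which transcripts differ when the same kind of tumor has been carried 4 weeks longer.

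The series profiled polyadenylated RNA of the diaphragm at 2, 4, 6 and 8 weeks after injection of melanoma cells that cause cachexia (CAC, cachectic melanoma cells), of a non-cachectic counterpart (NCAC, non-cachectic melanoma cells) or after a mock injection (Con). Both groups here received NCAC cells, and every mouse was female and 2 months old by the labels. The sample labels give the strain as C57BL6/J, whereas the series description gives NCI Ath/nude mice, which lack a thymus and so nearly all T cells. The mice of the later group were also 4 weeks further from injection, so longer tumor carriage and 4 weeks of ageing cannot be told apart within the tumor mice. Mock-injected mice at 4 and 8 weeks, 5 of each, spent the same interval without a tumor and were set beside them. Values are TPM, a length-corrected transcript abundance that gives a gene's share of the library's transcripts. The table holds no counts, so the depth of each library is unknown.

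The diaphragm drives breathing and contracts throughout life, so it holds a mixture of fast fatigue-resistant fibers, faster glycolytic fibers and a minority of slow fibers. Each fiber type is marked by its myosin heavy chain, the motor protein of the thick filament. In wasting muscle, ubiquitin ligases such as those encoded by Fbxo32 and Trim63 tag contractile proteins for the proteasome, while autophagy clears organelles. Tumor hosts may also carry immune infiltrates and altered hormone and daily rhythms, all of which leave traces in the RNA of whole muscle.

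All 10 libraries had the profile of skeletal muscle. The 10 fiber markers summed to 71338 to 76015 TPM at 4 weeks and to 72170 to 79300 TPM at 8 weeks. Their most abundant member was Acta1, the skeletal alpha-actin of the thin filament, at 26916 ± 1823 TPM at 4 weeks and 29046 ± 1514 TPM at 8 weeks (SD, n = 5). The marker list had 6 of 10 genes with a positive log2 difference and a median of 0.10 (0.04 to 0.16). After median-ratio scaling the median was 0.03. For this and every later list, a range in parentheses after a median spans the medians found on leaving out each of the 10 mice in turn, a measure added after the values were seen. The defining T cell genes were close to 0 in all 10 mice. Cd3e, a chain of the T cell receptor complex, did not exceed 0.180 TPM, and Cd8a, the co-receptor of cytotoxic T cells, did not exceed 0.0709 TPM. Of 10 T and natural killer cell markers, 3 were expressed enough to be tested, and the most abundant was the granule protease gene Gzma at 1.10 ± 0.334 TPM at 4 weeks and 0.652 ± 0.283 TPM at 8 weeks (SD, n = 5).

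Some of the 10 libraries stood apart from the others of their group. Among genes tested, 108 were more than 1 log2 unit above all 9 other mice in mouse 3 of the 8-week group, led by immunoglobulin genes. The same count was 25 in mouse 5 of the 8-week group, led by Saa3, and 8 in mouse 1, again led by immunoglobulin genes. At 4 weeks, mouse 5 had 12 genes more than 1 log2 unit below all 9 others, among them H2-Ea-ps, H2-Eb1, H2-D1, Actn3 and Ciart, and 3 above, Btg3, Gabbr1 and C920025E04Rik. Mouse 4 of 4 weeks had 5 genes above and 5 below all others by that margin, the ones above including 3 liver genes of the major urinary proteins, and it lay furthest out on the second principal component at 28.3, an axis with 18.7% of the variance. On the first, with 36.0%, mouse 3 of 8 weeks was furthest out at 47.9 and mouse 1 of 8 weeks was next at 18.6, the other 8 lying between -14.7 and 3.83. Correlations between pairs of the 10 libraries across genes ranged from 0.956 to 0.991, and no pair was identical. Mouse numbers are those of the labels within each group and carry no order or pairing.

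Mitochondrially encoded genes took 44.3% to 48.2% of TPM at 4 weeks and 44.7% to 45.6% at 8 weeks (exact two-sided permutation p = 0.206). The number of genes above 0 was 18121 to 18486 at 4 weeks and 18073 to 18773 at 8 weeks (exact two-sided permutation p = 0.381). The number at 1 TPM or more, a measure added after the values were seen, was 12116, 12106, 12119, 11918 and 11997 at 4 weeks. It was 12283, 12140, 12506, 12184 and 12395 at 8 weeks. Every 8-week mouse was above every 4-week mouse on that count, and the exact two-sided permutation p of 0.00794 is the smallest that 5 against 5 mice can give. Since the count was chosen after the values were seen, that p only describes the separation. After median-ratio scaling the groups overlapped and the exact permutation p was 0.0714. Mock-injected mice had 12116 to 12606 such genes at 4 weeks and 11804 to 12596 at 8 weeks. All 8-week tumor mice lay within both mock ranges.

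No gene passed the test between 8 and 4 weeks. Of 13578 genes tested with limma, 0 (0%) reached an adjusted p under 0.05 in either direction, and the smallest adjusted p was 1. At an unadjusted p under 0.05 there were 168 genes (1.24%), 151 higher and 17 lower, a split that depended on the scaling. It was 126 higher and 36 lower after median-ratio scaling, 91 and 87 after quantile normalization and 145 and 26 without the mitochondrial genes. Single mice moved these counts: the higher ones were 57, 98 and 92 without mouse 3, 1 or 5 of the 8-week group, 233 and 230 without mouse 2 or 4 of that group, and 61 and 99 without mouse 4 or 2 of the 4-week group. The lower ones were 7 and 10 without mouse 4 or 2 of the 4-week group and 34 without mouse 5 of the 8-week group. Dunn's rank test likewise called 0 genes after adjustment, with 370 higher and 82 lower before it. The cutoffs the study used for its time course, an unadjusted p under 0.01 and a log2 difference beyond 1, let through 4 genes (0.0295%) when applied to the limma p, all higher at 8 weeks. The number was 0 by Dunn's test, the test the study used, 0 after median-ratio scaling, 1 after quantile normalization and 3 without the mitochondrial genes. Without mouse 3 of the 8-week group that number was 0, without mouse 2 it was 19 and without mouse 4 it was 23. It was 1 without mouse 2 or mouse 5 of the 4-week group, and 2 without mouse 1 or mouse 4 of that group or mouse 1 of the 8-week group.

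The intervals show how large a difference could have been held, given a spread estimated over all 62 libraries. Those include 8 libraries of other groups that stand apart. The 95% confidence interval of the log2 difference lay within 1 unit of 0, a change of 2-fold, for 12548 genes (92.4%). It lay within 0.5 units for 6485 genes (47.8%). The median standard error was 0.21, and 95 genes had an estimated difference beyond 1. The median difference over all genes was 0.05, and 67.0% of genes had a positive one. With the compared groups alone in the limma fit, 1024 genes were higher and 173 lower at an unadjusted p under 0.05. The smallest adjusted p of that fit was 0.270, and its intervals are not given.

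The direction of the whole profile depended on how the libraries were scaled. In TPM as deposited, 184 genes (1.36%) had all 5 mice of 8 weeks above all 5 of 4 weeks, and 40 genes (0.295%) had all 5 below. Under median-ratio scaling the counts were 69 above and 188 below, and under quantile normalization 50 above and 156 below. With the mitochondrially encoded genes left out of the total, 128 were above and 71 below. The median of all genes was 0.05 as deposited, -0.0035 after median-ratio scaling, -0.02 after quantile normalization and 0.03 without the mitochondrial genes. Only 39 genes were above and 26 below under all 4 of these scalings.

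In the mock-injected mice over the same weeks, limma called 0 genes (0%), 120 had an unadjusted p under 0.05, and the median difference was 0.04. All 5 mock mice of 8 weeks lay above all 5 of 4 weeks for 176 genes (1.30%) and below for 10 genes (0.0736%). Those counts, added after the values were seen, were 126 and 78 after median-ratio scaling, 196 and 46 after quantile normalization and 239 and 37 without the mitochondrial genes, more above than below in each. Whether the tumor and mock tallies differ was not tested. The test of whether the difference over time itself differed between tumor and mock mice called 0 genes (0%), with 123 at an unadjusted p under 0.05 and 6 past the study's cutoffs. Dunn's test has no form for that comparison.

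The intermediate time point did not place a step in the series. limma called 0 genes (0%) between 6 and 4 weeks, with 52 at an unadjusted p under 0.05, and 0 genes (0%) between 8 and 6 weeks, with 83. In the cachectic tumor mice, 281 genes (2.07%) were called between 8 and 4 weeks, yet the test of the cachectic against the non-cachectic time difference called 0 genes (0%) at a smallest adjusted p of 0.165. At an unadjusted p under 0.05 that last comparison had 791 genes. Without mouse 3 of the 8-week cachectic group, which stands apart, the counts called were 638 and 15.

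The 6 genes with the smallest unadjusted p among those higher at 8 weeks were all at low levels. Cib3 (chr8:72204335-72212837), which encodes a small calcium- and integrin-binding protein, had the smallest. It measured 1.04, 0.453, 0.371, 0.312 and 1.44 TPM at 4 weeks and 3.01, 1.56, 2.71, 1.44 and 1.14 TPM at 8 weeks. The groups overlapped through mouse 5, which was the highest at 4 weeks and the lowest at 8 weeks, and mouse 4 of 8 weeks was level with that highest value. The log2 difference was 0.79 (95% interval 0.34 to 1.24, unadjusted p = 0.000854), against 0.29 in mock mice.

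Mmp9 (chr2:164940780-164955850) encodes a secreted gelatinase made largely by neutrophils and macrophages. It measured 0.625, 0.593, 1.11, 0.613 and 1.30 TPM at 4 weeks and 3.93, 1.55, 2.58, 0.996 and 2.25 TPM at 8 weeks. Only mouse 4 of 8 weeks was inside the 4-week range, and the log2 difference was 0.77. The second entry for Schip1 in the table, the gene of a protein of the axon initial segment and cell cortex, measured 0.300, 0, 0.418, 0.245 and 0.214 TPM at 4 weeks. At 8 weeks that entry, Schip1_2, measured 0.460, 1.66, 1.43, 0.957 and 1.46 TPM. Its groups did not overlap, its log2 difference was 0.81, and that of the mock mice was 0.57.

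The other 3 genes of this set are known from B cells, although no test asked whether such genes were frequent in it. Pou2f2 encodes Oct-2, a transcription factor of B cells, and had a log2 difference of 0.56. Pax5, the factor that fixes B cell identity, measured 0.203, 0.116, 0.270, 0.0228 and 0.222 TPM at 4 weeks and 0.823, 0.171, 2.32, 0.164 and 2.21 TPM at 8 weeks, a log2 difference of 0.73. Igkv1-88, a kappa light chain variable segment, had a log2 difference of 1.42 with mouse 3 of 8 weeks at 13.7 TPM and mice 1 and 2 at 1.65 and 2.17 TPM. Mouse 3 carried much of that difference. In Pax5 and Igkv1-88 the 8-week mice split, with mouse 4 inside the 4-week range for both.

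The 6 genes with the smallest unadjusted p among those lower at 8 weeks were abundant or moderately expressed. Cox6b1 (chr7:30616861-30626151) encodes a subunit that joins the monomers of cytochrome c oxidase. It measured 1306, 1386, 1266, 1459 and 1414 TPM at 4 weeks and 1227, 1182, 1134, 1251 and 1263 TPM at 8 weeks. All 5 mice of 8 weeks were below all 5 of 4 weeks by a narrow margin and not under every scaling, and the log2 difference was -0.17 (95% interval -0.32 to -0.03).

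Ndufa13 (chr8:69894180-69902558), a structural subunit of respiratory complex I, measured 432, 432, 432, 430 and 424 TPM at 4 weeks. At 8 weeks Ndufa13 measured 384, 327, 369, 386 and 406 TPM. The 4-week mice were nearly equal and all above the 8-week mice, an order that held under all 4 scalings, with a log2 difference of -0.20 against 0.02 in mock mice. Ech1, an isomerase that lets the mitochondrion burn unsaturated fatty acids, had a log2 difference of -0.25 with overlapping groups. The remaining 3 were Chac2, which degrades glutathione, at -0.41, Snrnp27, a spliceosome protein gene, at -0.16, and Ccdc58, a mitochondrial intermembrane space protein gene, at -0.27.

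The 4 genes past the study's cutoffs by the limma p were named after their values were seen. Besides Igkv1-88 they included the kappa variable segments Igkv19-93, with a log2 difference of 2.47, and Igkv4-74, with 1.62. Igkv19-93 measured at most 0.527 TPM at 4 weeks, and 34.9, 0, 52.2, 0.143 and 3.66 TPM at 8 weeks. The high values were those of mice 1 and 3, while mouse 2 was at 0 and mouse 4 inside the 4-week range. Gm13304, a predicted chemokine gene with near-identical copies, measured 17.5, 0, 8.29, 14.0 and 5.51 TPM at 4 weeks and 13.8, 11.3, 18.6, 29.5 and 16.9 TPM at 8 weeks. Its log2 difference of 1.37 was 0.67 without mouse 2 of 4 weeks, the mouse at 0. How reads that match several such copies were assigned is not stated, so values of single variable segments and of Gm13304 are uncertain.

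Transcripts of the fast chains Myh1 and Myh2 were the most abundant of the myosin heavy chains in both groups. Myh1, the heavy chain of type 2X fibers, was at 4562 ± 604 TPM at 4 weeks and 5008 ± 1660 TPM at 8 weeks (SD, n = 5). Its log2 difference of 0.08 became -0.058 without mouse 2 of the 8-week group and -0.028 without mouse 3. Myh2, of the oxidative 2A fibers, was at 3408 ± 460 and 3946 ± 703 TPM, a log2 difference of 0.21. Myh4, of the fastest 2B fibers, ran from 63.5 to 477 TPM at 4 weeks and from 61.7 to 282 TPM at 8 weeks, and its log2 difference of -0.25 turned to 0.09 without mouse 2 of the 4-week group and to 0.07 without mouse 5 of the 8-week group.

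The slow chain Myh7, shared with the heart ventricle, showed a wider spread at 8 weeks. It measured 373, 282, 367, 326 and 434 TPM at 4 weeks and 628, 588, 614, 390 and 312 TPM at 8 weeks. Mice 1, 2 and 3 of 8 weeks were above every 4-week mouse, and mice 4 and 5 were among them. The log2 difference was 0.47 (95% interval -0.33 to 1.27), against 0.21 in mock mice. Myh6, the atrial chain whose gene lies next to it, followed with 119, 102 and 115 TPM in the same 3 mice and 71.3 and 56.3 TPM in the others, a log2 difference of 0.42. Myh7b, an old relative of the slow chain, was at 9.12 ± 1.94 and 11.4 ± 3.40 TPM (SD, n = 5), a log2 difference of 0.26.

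The developmental chains split the 8-week group. Myh8, the perinatal chain, measured 29.1, 26.3, 25.1, 21.0 and 48.4 TPM at 4 weeks and 48.7, 1.03, 0.530, 26.8 and 24.1 TPM at 8 weeks. Mice 2 and 3 of 8 weeks were close to 0, mouse 1 was the highest of all 10, and the log2 difference was -1.55 with an interval of -3.55 to 0.45. The size of that difference rested largely on mice 2 and 3. Myh3, the embryonic chain, was at 8.10, 0.629, 0.221, 0.505 and 4.59 TPM at 8 weeks and at 2.14 to 9.04 TPM at 4 weeks, a log2 difference of -0.92. The gene of the extraocular chain Myh13 did not exceed 0.730 TPM and was not tested. In the tumor series, 1 mouse of the 6-week group was also near 0, at 0.491 TPM of Myh8.

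Across the wider contractile lists, 10 of 10 slow fiber genes had a positive difference, or 9 after median-ratio scaling, with a median of 0.15 (0.10 to 0.22) beside 0.05 for all genes and 0.06 in mock mice. Their most abundant member, Myl2, the slow regulatory light chain, measured 999, 818, 1044, 947 and 1204 TPM at 4 weeks and 1548, 986, 1372, 1011 and 1171 TPM at 8 weeks. Mice 1 and 3 of 8 weeks were above all 4-week mice and the other 3 were within their range. Of 12 fast fiber genes 6 were positive with a median of 0.01 (-0.08 to 0.04), which turned negative after median-ratio scaling (-0.05), without the mitochondrial genes (-0.02) and without any 1 of 6 mice. The fast troponin T gene Tnnt3 led them at 12552 ± 623 and 12118 ± 710 TPM (SD, n = 5). No member of either list was called.

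**Figure D1:**
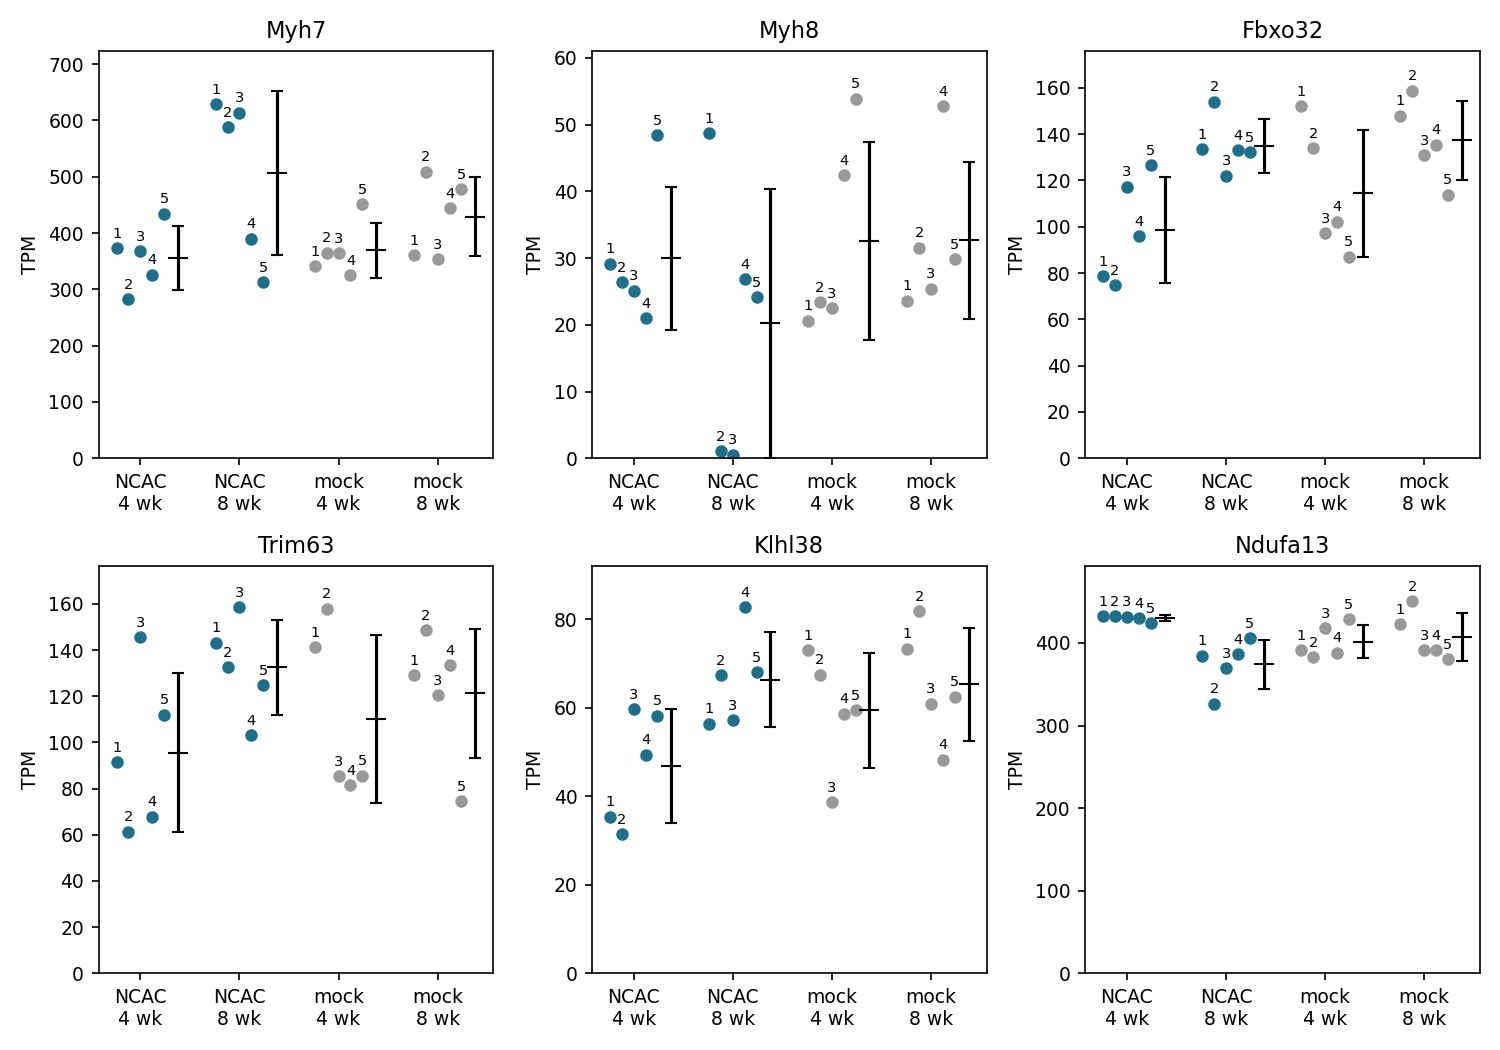
TPM (vertical axis) in each mouse at 4 and 8 weeks for Myh7, Myh8, Fbxo32, Trim63, Klhl38 and Ndufa13, with non-cachectic tumor mice in blue and mock-injected mice in gray. Points are mice with their number, and bars give the mean and SD of 5 mice, stopped at 0. Ndufa13 at 8 weeks in tumor mice lies at 327 to 406 TPM, below 424 TPM, the lowest 4-week value, while Myh8 is near 0 in mice 2 and 3 of the 8-week group.

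Among the ubiquitin ligases of muscle wasting, Fbxo32 and Trim63 were somewhat higher on average at 8 weeks, without passing the test. Fbxo32, which encodes atrogin-1, measured 78.7, 74.8, 117, 95.8 and 126 TPM at 4 weeks and 134, 154, 122, 133 and 132 TPM at 8 weeks. Mouse 5 of 4 weeks, at 126 TPM, was the reason the groups touched, since it lay above mouse 3 of 8 weeks. The log2 difference was 0.47 (95% interval -0.41 to 1.36). In mock mice the log2 difference of Fbxo32 was 0.28, and the test of the difference between tumor and mock mice gave 0.19 with an interval of -1.05 to 1.44.

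Trim63, which encodes the ligase MuRF1 of the sarcomere, measured 91.3, 61.4, 146, 67.9 and 112 TPM at 4 weeks and 143, 133, 159, 103 and 125 TPM at 8 weeks. The groups overlapped, with mouse 3 highest in each, and the log2 difference was 0.52 against 0.16 in mock mice. Klhl38, a Kelch protein gene that the study names, measured 35.4, 31.4, 59.7, 49.4 and 58.2 TPM at 4 weeks. At 8 weeks Klhl38 measured 56.4, 67.4, 57.2, 82.7 and 68.1 TPM, a log2 difference of 0.53. Mice 1 and 3 of 8 weeks lay below the highest 4-week mice.

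The list of 13 atrophy ligases and partners had 12 positive differences with a median of 0.09 (0.07 to 0.15). Over all genes 67.0% were positive, with a median of 0.05. After median-ratio scaling 10 were positive with a median of 0.03, and after quantile normalization 11 with 0.05. Mock mice as deposited also had 12 of 13 positive, with a median of 0.12, but 9 and 0.07 under either of those scalings. The list summed to 613 to 732 TPM at 4 weeks and 709 to 833 TPM at 8 weeks. Its most abundant member was Fbxo40, a ligase that targets the insulin receptor substrate, at 121 ± 13.7 and 130 ± 18.0 TPM (SD, n = 5). Chac1, a glutathione-degrading enzyme gene of the integrated stress response that was singled out after its values were seen, measured 27.1, 8.34, 23.4, 16.7 and 17.4 TPM at 4 weeks and 43.1, 30.0, 55.9, 41.9 and 26.6 TPM at 8 weeks. Only mouse 5 of 8 weeks was below the highest 4-week mouse, and the log2 difference was 1.09 (0.17 to 2.02).

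Only 11 of the genes named in the study's text were listed beforehand, and the rest of those gave the following values. Fibcd1, the secreted muscle factor at the center of the study, did not exceed 0.0118 TPM in these 10 mice and was not tested. Tnni1, the slow troponin I gene, had a log2 difference of 0.18, and Klf15, a glucocorticoid-driven regulator of amino acid use, had 0.14. Zbtb16, another glucocorticoid target, had -0.25, Wnt9a, a signaling ligand, had -0.08, and Scgb3a1, a small secretory protein gene at no more than 0.774 TPM, had -0.11. Tgfbi, an adhesion protein of the matrix, had 0.13.

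Of the other named genes, Ddit4, an inhibitor of growth signaling through mTORC1, ran from 7.57 to 40.5 TPM at 4 weeks and from 7.21 to 35.4 TPM at 8 weeks. Its log2 difference of 0.19 was -0.05 without mouse 3 of the 8-week group, -0.05 without mouse 5 of the 4-week group and -0.04 without mouse 3 of that group. Arrdc2, an arrestin-like gene, spanned 2.99 to 31.6 TPM and 5.44 to 25.6 TPM. Its log2 difference of 0.04 was -0.02 after median-ratio scaling, -0.03 after quantile normalization and -0.27 without mouse 3 of the 8-week group. Capza1, which caps actin filaments at the Z-disc, had 0.04, or -0.02 after median-ratio scaling and -0.01 after quantile normalization, with 26.8 TPM in mouse 5 of 8 weeks and 20.7 to 22.6 TPM in the other 9 mice.

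Of 25 nuclear genes of oxidative phosphorylation 4 had a positive difference, with 2 after median-ratio scaling, 6 after quantile normalization and 2 without the mitochondrial genes, and the median was -0.08 (-0.09 to -0.06) beside 0.05 for all genes. Mock mice had 17 of 25 positive and a median of 0.02, but 7 and -0.04 after median-ratio scaling, 11 and -0.01 after quantile normalization and 10 and -0.01 without the mitochondrial genes. No member was called, while 3 of 25 had all 8-week mice below all 4-week mice, in a background of 0.295%. Those 3 were Sdhd, Cox6c and Ndufa4, and none of them kept that order under all 4 scalings.

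Sdhd, a membrane anchor of succinate dehydrogenase, measured 589, 597, 575, 595 and 599 TPM at 4 weeks and 551, 538, 532, 558 and 573 TPM at 8 weeks. The gap between the groups was 573 to 575 TPM, and the log2 difference was -0.10. Cox6c, of cytochrome c oxidase, had -0.22, and Ndufa4, a subunit of the same complex, had -0.13. Uqcr10, a small subunit of complex III outside the list that was chosen after its values were seen, measured 928, 911, 916, 992 and 929 TPM at 4 weeks and 844, 633, 788, 793 and 854 TPM at 8 weeks. All 8-week mice were below all 4-week mice under all 4 scalings, and mouse 2 was lowest.

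The list as a whole summed to 20346 to 21298 TPM at 4 weeks and 19181 to 20772 TPM at 8 weeks, overlapping ranges. Its most abundant member, the ATP synthase alpha subunit gene Atp5a1, was at 2201 ± 72.0 and 2212 ± 86.3 TPM (SD, n = 5). The 13 mitochondrially encoded protein genes had 7 positive differences and a median of 0.01 (-0.05 to 0.01), or 3 and -0.05 after median-ratio scaling. Their most abundant member was mt-Co1, the catalytic core of cytochrome c oxidase, at 96885 ± 2823 and 94103 ± 1861 TPM (SD, n = 5).

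Of 24 genes of fatty acid oxidation 13 were positive with a median of 0.01 (-0.00015 to 0.06), or -0.04 after median-ratio scaling, -0.01 without the mitochondrial genes and level with 0 after quantile normalization. Fabp3, the fatty acid carrier of oxidative muscle, led them at 5725 ± 657 and 5306 ± 822 TPM (SD, n = 5). Of 17 glycolysis and glycogen genes 8 were positive, led by the aldolase gene Aldoa at 1898 ± 129 and 1910 ± 102 TPM (SD, n = 5). Pdk4, which shuts glucose carbon out of the mitochondrion during fasting, measured 843, 271, 535, 294 and 1010 TPM at 4 weeks and 817, 965, 786, 517 and 557 TPM at 8 weeks. Its 4-week mice covered the whole range of the 8-week mice, and the log2 difference was 0.46.

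Of 22 proteasome subunits 7 were positive with a median of -0.06 (-0.07 to -0.04), or 2 and -0.12 after median-ratio scaling, 4 and -0.10 after quantile normalization and 4 and -0.09 without the mitochondrial genes. Psma4, a ring subunit, was the only one of 22 whose groups did not overlap, at 73.3 to 79.0 TPM and 66.4 to 73.2 TPM, in a background of 0.295% of genes with all 8-week mice below. The most abundant subunit gene was Psmb1, at 187 ± 10.8 and 180 ± 10.9 TPM (SD, n = 5). Of 25 cytosolic ribosomal protein genes 9 were positive with a median of -0.01 (-0.05 to 0.03), or 3 and -0.07 after median-ratio scaling, 3 and -0.05 without mouse 3 of 8 weeks and 19 and 0.03 without mouse 2 of 8 weeks, led by Rplp1 of the ribosomal stalk at 1139 ± 87.5 and 1032 ± 220 TPM (SD, n = 5). Of 18 autophagy and lysosome genes 15 were positive with a median of 0.07 (0.04 to 0.10), or 12 and 0.01 after median-ratio scaling. Their most abundant member was Ctsd, a lysosomal protease, at 509 ± 16.0 and 533 ± 31.4 TPM (SD, n = 5).

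In the autophagy list 2 of 18 genes had all 8-week mice above all 4-week mice, in a background of 1.36%. Gabarapl1 (chr6:129533160-129542346), whose protein is tied to the growing autophagosome membrane, measured 76.7, 70.3, 72.6, 69.1 and 72.7 TPM at 4 weeks and 96.9, 81.1, 105, 82.5 and 81.1 TPM at 8 weeks. That order held under all 4 scalings, and the log2 difference was 0.29 against -0.02 in mock mice. Atg7, the enzyme that activates the conjugation of such proteins, was at 2.93 to 4.00 TPM and 4.03 to 4.54 TPM, a log2 difference of 0.21, and overlapped under at least 1 other scaling.

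The widest differences were in genes of B cells and plasma cells, the antibody-making line that mice without a thymus still have. In whole muscle, more cells of a type and more RNA per cell cannot be told apart. All 10 markers of the list had a positive difference under every scaling, with a median of 1.27 beside 0.05 for all genes, and none was called. The median was 0.94 without mouse 3 of the 8-week group and 0.86 without mouse 5. In mock mice 0 of 10 were positive and the median was -0.54.

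The 10 genes summed to 55.5, 34.7, 361, 24.1 and 30.5 TPM at 4 weeks and to 1014, 57.5, 3194, 40.4 and 303 TPM at 8 weeks. Mice 1 and 3 of 8 weeks were above every 4-week mouse, mouse 5 of 8 weeks was below mouse 3 of 4 weeks, and mice 2 and 4 were near the other 4 mice of 4 weeks, mouse 2 just above them and mouse 4 among them. Mock mice spanned 69.0 to 958 TPM at 4 weeks and 73.5 to 1039 TPM at 8 weeks. Sums near that of mouse 1 of 8 weeks thus also occurred in these mock mice, and the sum of mouse 3 did not. Mock mice of 2 and 6 weeks were not examined for this sum. Tumor mice at 2 weeks were at 965, 23.3, 45.1, 24.0 and 5153 TPM. The last is a library that stands apart, with 15493 genes above 0 against 17968 to 18458 in the other 4 and 49352 TPM of fiber markers against 66229 to 81277, and without it the highest sum at 2 weeks is 965 TPM.

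Fat cell markers were high in some of the same mice. The 3 highest B cell sums of the 10, in mice 3 and 1 of 8 weeks and mouse 3 of 4 weeks, came with 2710, 1459 and 1647 TPM of the 10 adipocyte markers, the 3 highest of the 10 mice. Mouse 5 of 2 weeks had 2934 TPM, and the mock mice with the highest B cell sums at 4 and 8 weeks had 1951 and 1634 TPM, the second highest and highest adipocyte sums of their groups. At 6 weeks the tumor mouse with the highest B cell sum, 382 TPM, was second for fat cell markers at 1304 TPM. Other mice did not follow this order. Mouse 5 of 8 weeks, next among the 10 with a B cell sum of 303 TPM, had 965 TPM of fat cell markers. Mock mouse 5 of 4 weeks had 512 TPM of B cell genes and 1082 TPM of fat cell markers. Whether the B cell values depend on fat in the sample was not tested.

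Igkc, the constant region of the kappa light chain and the most abundant member, measured 11.1, 5.69, 230, 1.80 and 5.90 TPM at 4 weeks and 631, 15.4, 2226, 4.39 and 91.6 TPM at 8 weeks. Its log2 difference was 2.99, with an interval of -0.57 to 6.55 that shows how far the mice differed among themselves. Leaving out mouse 3 of 8 weeks lowers that difference, and leaving out mouse 3 of 4 weeks raises it. Ighm, the heavy chain of IgM, had 2.04, and Cd79a, which carries the signal of the B cell receptor, had 1.58.

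The antibody segments differed between the high mice. Mouse 3 of 8 weeks held 359 TPM of Ighg1, the IgG1 heavy chain, and 797 TPM of the variable segment Igkv10-96, against at most 13.1 and 13.3 TPM in the other 9 mice. Mouse 1 held 75.9 TPM of Igkv5-45, against at most 2.61 TPM in the others. Jchain, which links antibody units in secreted IgM and IgA, was at 51.0 TPM in mouse 1 and 130 TPM in mouse 3 of 8 weeks, at 15.8 TPM in mouse 3 of 4 weeks, and at most 0.490 TPM in the other 7.

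Cxcl13 (chr5:95956951-95961068), the chemokine that draws B cells into follicles, went with them. It measured 2.19, 0.594, 5.45, 0.263 and 2.90 TPM at 4 weeks and 67.6, 2.34, 71.5, 0.947 and 14.7 TPM at 8 weeks. The mice high for Cxcl13 were 1, 3 and 5 of 8 weeks, the same mice that were highest in B cell genes at that time. The log2 difference was 2.32 (0.35 to 4.30), against -0.77 in mock mice. The test of that gap gave 3.10 with an interval of 0.30 to 5.89 before any adjustment, and mock mice at 4 weeks reached 82.8 TPM.

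**Figure D2:**
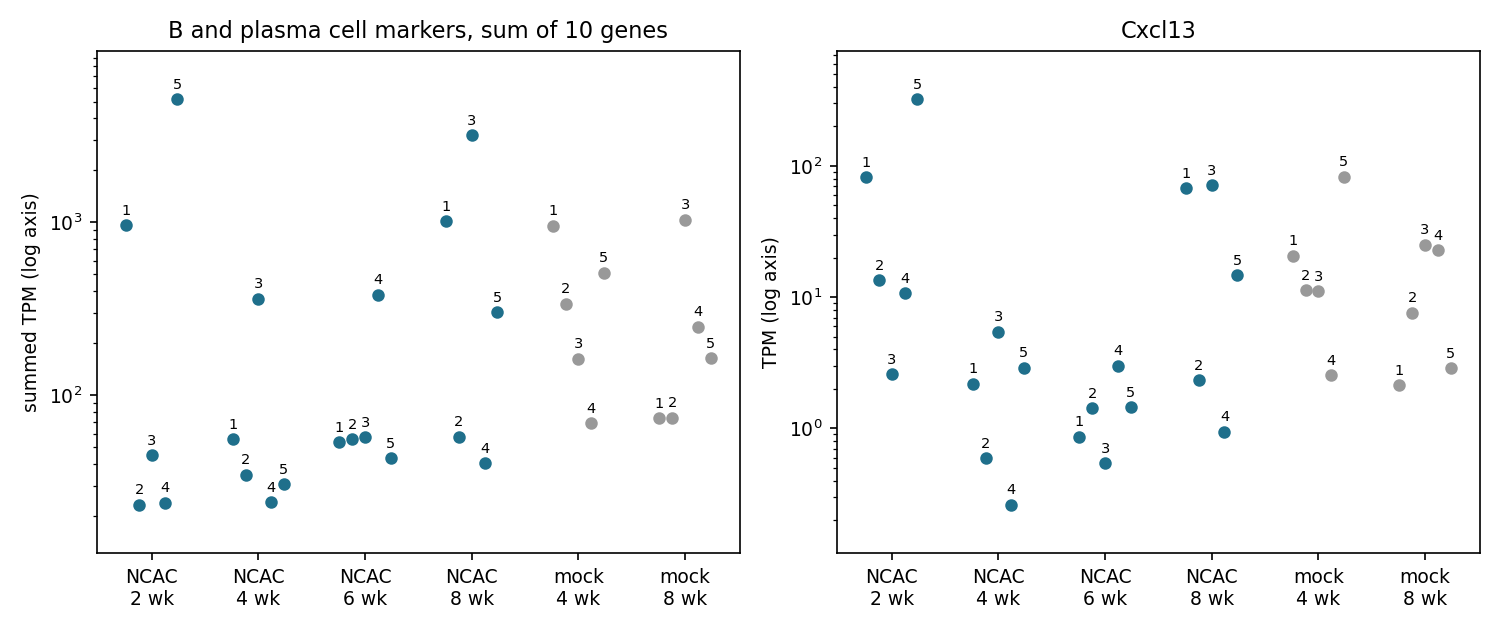
Summed TPM of 10 B and plasma cell markers (left) and TPM of Cxcl13 (right), both on log axes, in each non-cachectic tumor mouse at 2, 4, 6 and 8 weeks (blue) and each mock-injected mouse at 4 and 8 weeks (gray). Points are mice with their number. At 8 weeks mice 1 and 3 reach 1014 and 3194 TPM in the sum while mice 2 and 4 stay at 57.5 and 40.4 TPM, while mock mice reach 1039 TPM. The point at 5153 TPM is mouse 5 of 2 weeks, whose library stands apart with 15493 genes above 0, and the other mice of 2 weeks reach 965 TPM.

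Macrophage and monocyte markers had 14 of 14 positive differences, but 12 of 14 under median-ratio scaling or quantile normalization and 13 without the mitochondrial genes, with a median of 0.30 (0.15 to 0.41), lowest without mouse 5 of 8 weeks. Mock mice had 5 of 14 positive and a median of -0.11. The list summed to 544, 499, 301, 267 and 453 TPM at 4 weeks and 705, 287, 415, 422 and 1418 TPM at 8 weeks. Among these 10 mice, mouse 5 of 8 weeks was far above the rest, mouse 1 was next, and the other 3 lay within the 4-week range. Mock mouse 5 of 4 weeks reached 1941 TPM. Tumor mouse 5 of 2 weeks, whose library stands apart, reached 1423 TPM. Lyz2, the lysozyme gene of myeloid cells and the most abundant member, was at 1088 TPM in mouse 5 of 8 weeks and had a log2 difference of 0.55. Adgre1, the macrophage surface protein F4/80, was at 24.1 TPM in the same mouse and at 2.29 to 10.3 TPM in the other 9.

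Saa3, an acute-phase protein made by macrophages and fat in inflammation, measured 79.1, 8.73, 13.6, 0.475 and 11.9 TPM at 4 weeks and 68.0, 4.96, 15.0, 12.2 and 538 TPM at 8 weeks. Mouse 5 of 8 weeks was again highest, and the other 8-week mice lay within the 4-week range. The acute phase list as a whole had 6 of 16 positive differences and a median of -0.04 (-0.20 to 0.05), against 3 of 16 and -0.50 in mock mice. Without mouse 3 of 8 weeks 4 of 16 were positive. Neutrophil markers had 5 of 5 positive with a median of 0.29 (0.21 to 0.40), the other 5 of 10 being too low to test, and S100a9, a calcium-binding alarm protein of neutrophils, was at 5.73 ± 2.84 and 6.31 ± 1.58 TPM (SD, n = 5).

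Complement genes, whose products coat targets for uptake, had 13 of 17 positive differences under every scaling and a median of 0.37 (0.26 to 0.43), against 4 of 17 and -0.07 in mock mice. Their most abundant member was Cfd, the factor D made chiefly by fat cells, at 138, 105, 490, 271 and 157 TPM at 4 weeks and 322, 59.5, 983, 174 and 158 TPM at 8 weeks. Mouse 3 was highest in each group, and no order between the groups was visible. C3, the central component, was at 179 to 290 TPM at 4 weeks and 266 to 401 TPM at 8 weeks with a log2 difference of 0.37, and C4b, of the antibody-triggered pathway, had 0.72.

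Antigen presentation genes had 12 of 13 positive differences, or 9 under median-ratio scaling or quantile normalization, with a median of 0.25 (0.15 to 0.28) against 0.30 in mock mice. Without mouse 3 of 8 weeks 8 of 13 were positive. B2m, the light chain of class I molecules and the most abundant, was at 318 ± 42.3 and 319 ± 57.8 TPM (SD, n = 5). H2-Eb1, a class II chain, measured 51.0, 29.1, 50.3, 25.2 and 1.78 TPM at 4 weeks and 70.2, 25.1, 79.9, 33.7 and 85.95 TPM at 8 weeks. Its log2 difference of 1.26 was 0.50 without mouse 5 of 4 weeks, the mouse also low in H2-D1 and some other class I and II genes of this locus but highest of the 10 in H2-K2.

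Interferon response genes had 13 of 20 positive differences with a median of 0.05 (-0.05 to 0.10), which was -0.03 with 6 positive after quantile normalization and -0.05 with 9 positive without mouse 5 of 8 weeks, while mock mice had 18 of 20 and 0.28. Ifi27, the most abundant member, was at 47.7 ± 2.53 and 47.9 ± 8.19 TPM (SD, n = 5). Of the GTPases that interferon induces to attack parasite vacuoles, Tgtp2 and Iigp1 were singled out after their values were seen, and the family as a whole was not tallied. Tgtp2 measured 6.34, 9.18, 5.90, 7.50 and 4.92 TPM at 4 weeks and 4.23, 3.89, 3.34, 2.22 and 4.36 TPM at 8 weeks. All 8-week mice were below all 4-week mice under all 4 scalings, at a log2 difference of -0.75 against 0.52 in mock mice.

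Iigp1, a relative of the same family on another chromosome, measured 11.5, 10.7, 8.42, 13.05 and 12.4 TPM at 4 weeks and 7.42, 8.24, 7.67, 4.50 and 7.69 TPM at 8 weeks. Its groups did not overlap either, at a log2 difference of -0.60 against 0.66 in mock mice. Chemokines and cytokines had 10 of 16 positive differences with a median of 0.08 (0.04 to 0.12). Under median-ratio scaling or quantile normalization 8 were positive with a median of 0.02. The most abundant was Cxcl12, which holds progenitor and immune cells in place, at 64.5 ± 6.58 and 72.4 ± 14.3 TPM (SD, n = 5).

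**Figure D3:**
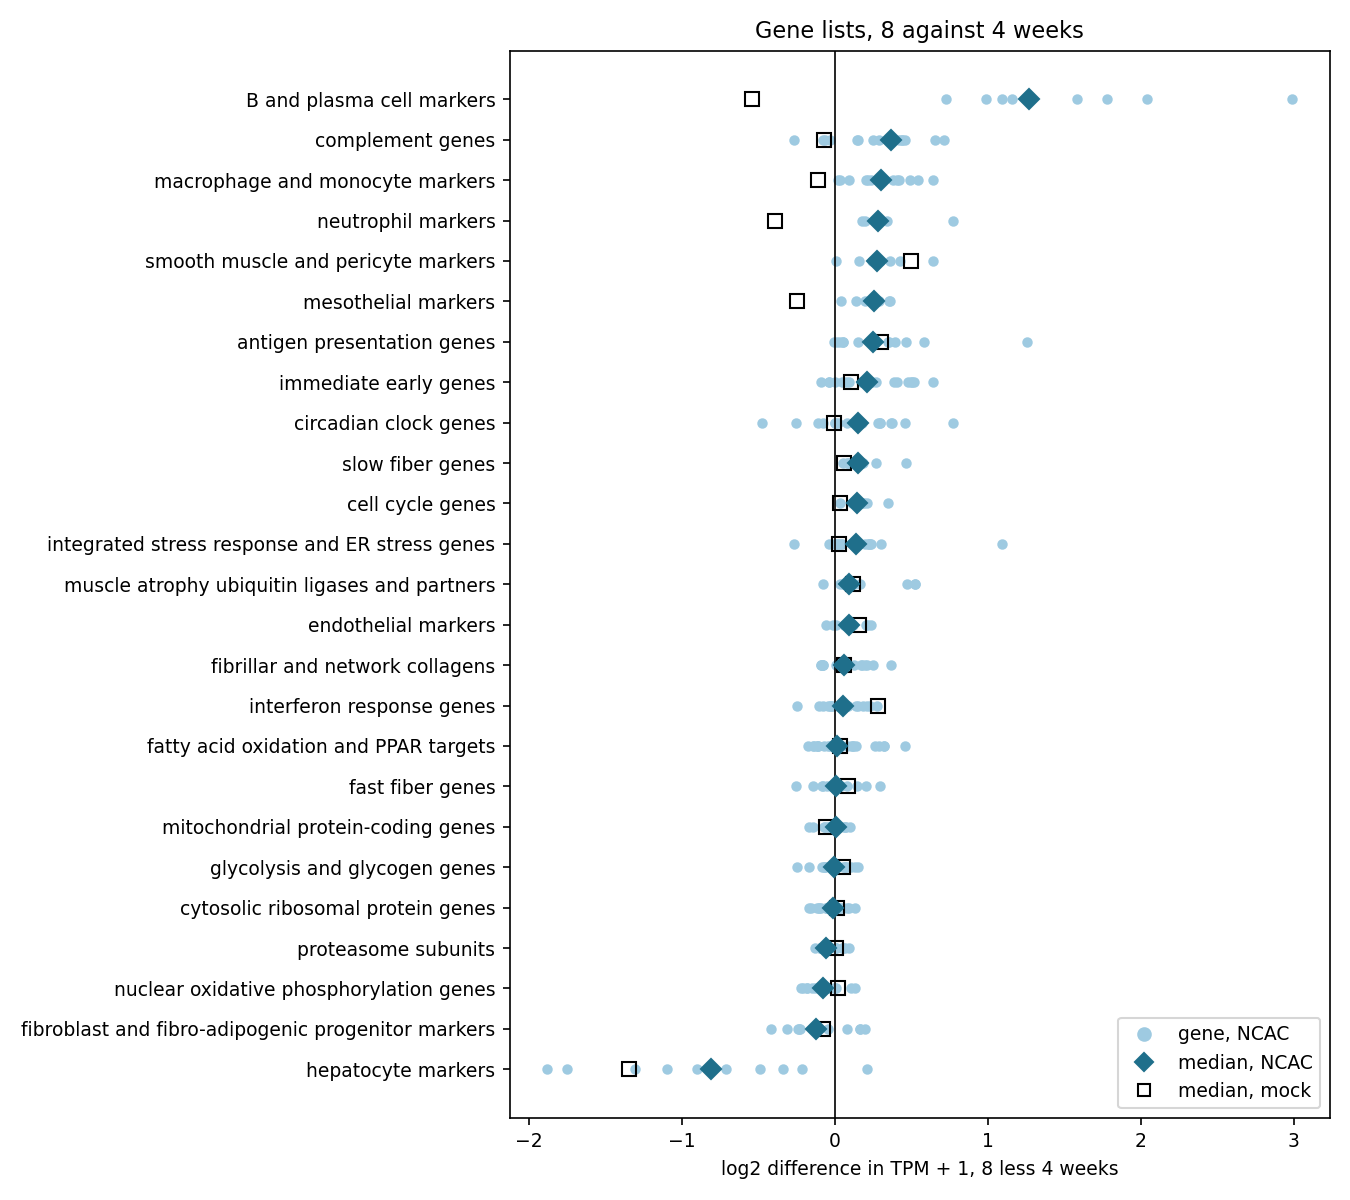
The log2 difference in TPM + 1 between 8 and 4 weeks (horizontal axis) for each gene of 25 lists in non-cachectic tumor mice (pale points), with the list median in tumor mice (diamonds) and in mock-injected mice (open squares). B and plasma cell markers have medians of 1.27 in tumor and -0.54 in mock mice. The nuclear oxidative phosphorylation genes have medians of -0.08 and 0.02, the mock value being negative under the other 3 scalings, and no gene shown was called.

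Ranked by the unadjusted p for a time difference unlike that of mock mice, Mtfr2 came first, although other genes departed further. Mtfr2 (chr10:20347770-20361304) encodes a mitochondrial fission regulator and had an interaction of 1.37 (0.61 to 2.13, unadjusted p = 0.000699). It measured 1.23, 3.21, 2.78, 0.656 and 2.36 TPM at 4 weeks and 4.45, 2.67, 4.09, 3.10 and 2.84 TPM at 8 weeks. The tumor groups overlapped, at a log2 difference of 0.60, while the mock difference was -0.76, so the larger share of the gap came from the mock side.

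Of the next 5 by that p, Pou2f2 had an interaction of 0.78, Pax5 had 1.03 and Igkv9-124 had 3.42. Prkcb, a protein kinase C of B cell receptor signaling, had 0.79. No test asked whether B cell genes were frequent in this set. Igkv9-124 reached 75.4 TPM in mouse 3 of 8 weeks and 67.1 TPM in 1 mock mouse of 4 weeks. The last was Tgtp1, the near-identical neighbor of Tgtp2, with -1.39. Tgtp1 measured 7.02, 5.51, 3.63, 6.63 and 6.15 TPM at 4 weeks and 3.42, 2.52, 3.85, 2.35 and 3.46 TPM at 8 weeks, overlapping only through mouse 3 of each group.

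Of 17 collagens 12 were positive with a median of 0.06 (-0.07 to 0.31), or 9 and 0.00 after median-ratio scaling. The sum was 562, 591, 638, 381 and 674 TPM at 4 weeks and 596, 863, 279, 682 and 776 TPM at 8 weeks. Mouse 3 of 8 weeks had the lowest collagen sum of all 10, and without it 17 of 17 genes were positive with a median of 0.31. Without mouse 5 of 8 weeks 8 of 17 were positive with a median of -0.05.

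Col3a1, the fibrillar collagen of soft tissue and the most abundant member, was at 40.1 TPM in mouse 3 of 8 weeks and at 108 to 168 TPM in the other 4. Mfap4, a microfibril protein of elastic fibers, was at 10.6 TPM in that mouse and at 33.4 to 63.0 TPM in the other 9. The same mouse had 990 TPM of H19, an imprinted growth-linked noncoding RNA, against 2244 to 3591 TPM in the others, and the log2 difference of H19 was -0.51. Elastic fiber and proteoglycan genes had 14 of 19 positive with a median of 0.15 (0.05 to 0.23), lowest without mouse 4 of 4 weeks, led by the proteoglycan gene Dcn at 573 ± 39.8 and 606 ± 30.5 TPM (SD, n = 5).

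Markers of neighboring tissue varied from mouse to mouse. Of 10 hepatocyte markers 1 was positive with a median of -0.81, against -1.35 in mock mice. The median was -1.39 without mouse 3 of 8 weeks and -0.54, with 0 of 10 positive, without mouse 5. Alb, serum albumin, measured 23.3, 25.9, 43.3, 91.4 and 0.126 TPM at 4 weeks and 0.234, 0.454, 129, 14.3 and 0.252 TPM at 8 weeks. Mouse 5 of 4 weeks and mice 1, 2 and 5 of 8 weeks were near 0, and the hepatocyte list summed to 36.0 to 255 TPM and 29.0 to 289 TPM. The most abundant member was Trf, the iron carrier transferrin, which muscle also expresses, at 51.6 ± 15.6 and 63.9 ± 31.6 TPM (SD, n = 5).

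Adipocyte markers had 7 of 10 positive with a median of 0.13 (-0.15 to 0.31), or 6 and 0.07 after median-ratio scaling, and their sum reached 2710 TPM in mouse 3 of 8 weeks against 912 to 1647 TPM in the other 9. Without that mouse 2 of 10 were positive and the median was -0.15. Fabp4, the fatty acid carrier of fat cells and capillaries, led them at 684 ± 83.8 and 712 ± 241 TPM (SD, n = 5). Mesothelial markers, of the lining on the diaphragm's surfaces, had 8 of 8 positive, or 7 after median-ratio scaling or quantile normalization, with a median of 0.25 (0.09 to 0.33) against 0 of 8 and -0.24 in mock mice. Upk3b led them at 36.7 ± 8.13 and 43.4 ± 8.79 TPM (SD, n = 5), and the list summed to 88.0 to 165 TPM and 125 to 198 TPM.

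Blood markers had 5 of 7 positive, or 4 after median-ratio scaling or quantile normalization, with a median of 0.13 (-0.14 to 0.44). Without mouse 5 of 8 weeks 2 of 7 were positive with a median of -0.12, without mouse 4 of 4 weeks 1 of 7, and without mouse 3 of 8 weeks 7 of 7 with a median of 0.39. Hbb-bs, a beta-globin gene and the most abundant, was at 4160 ± 2481 and 3858 ± 2200 TPM (SD, n = 5). Smooth muscle and pericyte markers had 8 of 8 positive, or 7 after median-ratio scaling and without the mitochondrial genes, with a median of 0.28 (0.16 to 0.33), lowest without mouse 3 of 8 weeks, against 0.50 in mock mice. Their most abundant member was the muscle filament gene Des, at 1246 ± 180 and 1496 ± 277 TPM (SD, n = 5). Endothelial markers had 8 of 10 positive, or 7 under each other scaling, with a median of 0.09 (0.05 to 0.15), led by the junction gene Cdh5 at 60.0 ± 7.08 and 70.4 ± 12.5 TPM (SD, n = 5).

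Fibroblast and progenitor markers had 4 of 12 positive with a median of -0.12 (-0.18 to -0.02), negative under each scaling. Without mouse 3 of 8 weeks 6 of 12 were positive. Gsn, an actin-severing protein gene high in these cells, led them at 661 ± 37.0 and 568 ± 85.8 TPM (SD, n = 5). What share the fat, lining, blood and immune cells had in the differences above was not tested.

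Regulators of muscle formation had 5 of 12 positive with a median of -0.07 (-0.09 to -0.0053), nearest 0 without mouse 3 of 8 weeks, led by Mef2c, a factor of muscle gene expression, at 118 ± 6.26 and 113 ± 8.26 TPM (SD, n = 5). Myog, the factor of differentiating and denervated muscle, singled out after its values were seen, measured 7.61, 24.1, 13.6, 13.8 and 6.17 TPM at 4 weeks and 4.94, 10.04, 4.52, 5.48 and 10.6 TPM at 8 weeks. Mice 1, 3 and 4 of 8 weeks were below every 4-week mouse, and the log2 difference was -0.72.

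Integrated and endoplasmic reticulum stress genes had 17 of 19 positive with a median of 0.14 (0.05 to 0.18), or 11 and 0.08 after median-ratio scaling and 12 and 0.05 without mouse 3 of 8 weeks, led by Atf4, the pathway's own transcription factor, at 158 ± 10.1 and 160 ± 29.9 TPM (SD, n = 5). Heat shock proteins had 9 of 18 positive with a median of 0.01 (-0.05 to 0.08), or 8 and -0.05 after median-ratio scaling or quantile normalization and 8 and -0.01 without the mitochondrial genes. Immediate early genes had 17 of 20 positive with a median of 0.21 (0.14 to 0.31), or 15 after median-ratio scaling, led by the phosphatase gene Dusp1 at 45.0 ± 10.7 and 42.2 ± 9.46 TPM (SD, n = 5). Cell cycle genes had 9 of 9 positive, or 8 after median-ratio scaling or quantile normalization, with 11 of 20 too low to test.

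In the cell cycle list the helicase subunit genes Mcm2 and Mcm3 had non-overlapping groups as deposited, in a background of 1.36%, and neither did under all 4 scalings. Mcm2 was at 3.22 to 3.75 TPM and 3.92 to 4.27 TPM, a log2 difference of 0.15 against 0.18 in mock mice. Mcm3 was at 2.83 to 3.47 TPM and 3.51 to 4.26 TPM, a log2 difference of 0.19, which mock mice also had. The clamp gene Pcna was the most abundant, at 20.3 ± 1.00 and 20.8 ± 1.60 TPM (SD, n = 5). Hmox1, the heme-degrading enzyme of the antioxidant list, was at 5.63 to 7.78 TPM and 7.91 to 12.4 TPM, a log2 difference of 0.42, without keeping that order under all 4 scalings.

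The 39 genes above and 26 below under all 4 scalings, out of 13578 tested, include Cd38 and Piezo1 above, singled out after their values were seen. Cd38 (chr5:43868553-43912375), an enzyme that consumes NAD and is rich on plasma cells and other immune cells, measured 6.29, 5.31, 6.13, 4.57 and 6.85 TPM at 4 weeks. At 8 weeks Cd38 measured 10.9, 7.64, 9.42, 7.17 and 11.7 TPM, a log2 difference of 0.59 against -0.24 in mock mice. Mice 5, 1 and 3 were highest, which were also the mice high in B cell genes, and mice 2 and 4 still lay above the 4-week range. Piezo1, a channel that opens when the membrane is stretched, was at 6.52 to 9.41 TPM and 10.5 to 11.8 TPM, a log2 difference of 0.38 against 0.09 in mock mice.

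Genes of the circadian clock varied within the groups. In the clock, Arntl drives the Per genes and Nr1d1, whose products then turn it off, so Arntl and Per2 peak at opposite times of day. The time of day at which each mouse was sampled is not in the labels. Of 19 clock genes 14 were positive with a median of 0.15 (0.01 to 0.19), or 12 under each other scaling, against 9 of 19 and a median of 0.00 in mock mice. Without mouse 5 of 4 weeks 10 of 19 were positive. No clock gene was called.

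Arntl measured 2.20, 0.840, 10.7, 0.869 and 18.3 TPM at 4 weeks and 5.58, 12.98, 6.66, 1.09 and 5.07 TPM at 8 weeks. Per2 measured 20.8, 30.8, 4.38, 22.3 and 1.56 TPM at 4 weeks and 12.1, 4.52, 10.4, 16.8 and 9.45 TPM at 8 weeks. The mice high in Arntl were low in Per2, namely mice 3 and 5 of 4 weeks and mouse 2 of 8 weeks. Nr1d1, the most abundant of the list, measured 59.3, 21.2, 136, 24.9 and 154 TPM at 4 weeks and 71.3, 180, 102, 67.6 and 115 TPM at 8 weeks. The same 3 mice were its highest, and its log2 difference was 0.77 against 1.04 in mock mice. Much of the 0.77 came from mice 2 and 4 of 4 weeks, the lowest of the 10.

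Per1 was lowest in mouse 5 of 4 weeks at 4.14 TPM and in mouse 2 of 8 weeks at 10.3 TPM, against 22.2 to 41.7 TPM in the other 8. Ciart, a clock repressor, was at 0.716 TPM and 2.95 TPM in those mice and at 5.04 to 9.51 TPM in the other 8. Glucocorticoid response genes, which follow a daily hormone rhythm, had 10 of 15 positive with a median of 0.14 (-0.03 to 0.22), or 0.00 without mouse 3 of the 8-week group and -0.03 without mouse 5 of the 4-week group, against 2 of 15 and -0.25 in mock mice.

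**Figure D4:**
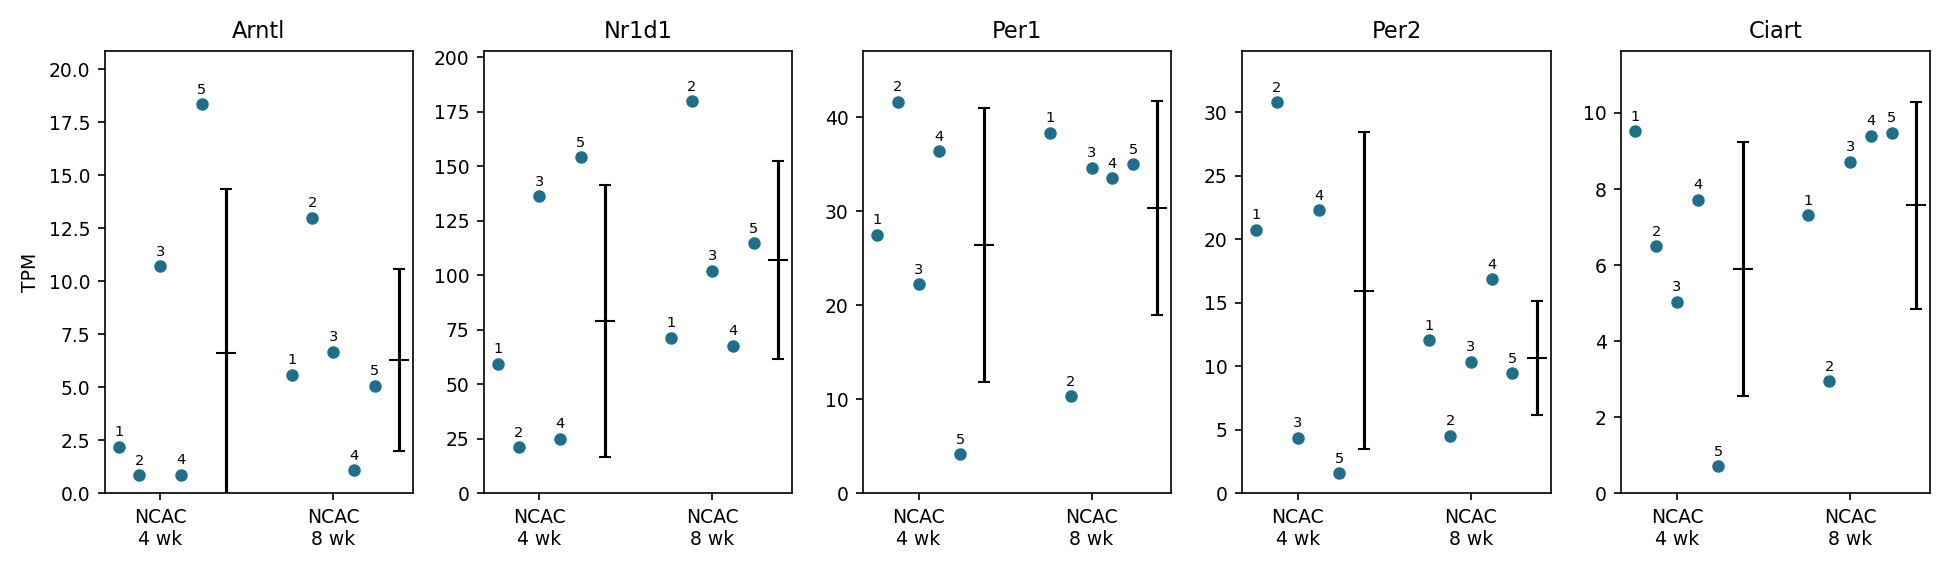
TPM (vertical axis) of Arntl, Nr1d1, Per1, Per2 and Ciart in each non-cachectic tumor mouse at 4 and 8 weeks. Points are mice with their number, and bars give the mean and SD of 5 mice. Mice 3 and 5 of 4 weeks and mouse 2 of 8 weeks are high in Arntl, at 10.7, 18.3 and 12.98 TPM, and low in Per2, at 4.38, 1.56 and 4.52 TPM.

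The promoters of clock genes carry the elements through which the loop acts, and 3 are shown whose genes were low in mouse 5 of 4 weeks and mouse 2 of 8 weeks. They were chosen after the values were seen, and no correlation between the genes was computed. In RefSeq promoter windows of 300 bases on GRCm38.p6, both strands were searched for the E-box CACGTG, which the Arntl protein binds, and for the D-box TTATGTAA, bound by factors of the Dbp family. Of 32851 windows, 2349 (7.15%) held the E-box and 308 (0.938%) the D-box. Of the 19 clock genes 16 had a window, 21 windows in all, of which 6 held an E-box and 1 a D-box. Capitals mark those letters. The windows are Ciart at chr3:95882179-95882478 on the minus strand with 3 E-boxes, Per1 at chr11:69098699-69098998 on the plus strand with 1 E-box, and Per3 at chr4:151044616-151044915 on the minus strand with 2 D-boxes. Another Per1 window, at chr11:69099902-69100201, held neither motif. A further motif that was searched, AGGTCA, was in 5340 windows (16.3%) and is not marked. Per3 was at 12.8 ± 5.84 and 12.8 ± 3.75 TPM (SD, n = 5) and lowest in mice 5 and 3 of 4 weeks and mouse 2 of 8 weeks. A match is a description of the letters only.
Ciart: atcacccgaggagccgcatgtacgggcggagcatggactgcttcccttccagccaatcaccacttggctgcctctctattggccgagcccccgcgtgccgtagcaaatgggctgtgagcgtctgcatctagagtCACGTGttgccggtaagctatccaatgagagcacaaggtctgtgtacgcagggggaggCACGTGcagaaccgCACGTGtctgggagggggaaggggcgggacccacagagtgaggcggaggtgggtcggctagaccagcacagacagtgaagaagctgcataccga
Per1: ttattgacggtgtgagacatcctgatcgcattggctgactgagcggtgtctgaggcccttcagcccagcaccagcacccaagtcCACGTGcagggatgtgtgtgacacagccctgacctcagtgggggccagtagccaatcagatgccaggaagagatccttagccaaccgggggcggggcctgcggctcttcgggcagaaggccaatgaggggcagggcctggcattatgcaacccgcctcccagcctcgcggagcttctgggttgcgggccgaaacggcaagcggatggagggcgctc
Per3: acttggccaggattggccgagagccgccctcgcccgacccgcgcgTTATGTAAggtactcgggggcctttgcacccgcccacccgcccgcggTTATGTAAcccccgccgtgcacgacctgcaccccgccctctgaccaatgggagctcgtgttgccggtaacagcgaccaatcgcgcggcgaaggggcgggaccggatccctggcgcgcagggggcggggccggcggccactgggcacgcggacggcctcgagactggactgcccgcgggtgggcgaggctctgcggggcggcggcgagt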

How the data were processed

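RNA of diaphragm muscle was sequenced and aligned to mm10 with CLC Genomics Workbench. By the study's methods the diaphragm was freed of tendon and only its muscle was kept. Part of that muscle went to RNA extraction and the remainder was sectioned. The deposited table gives TPM, made by the authors for 47643 genes in 62 libraries, each column summing to 1000000. No counts were given, so depth and its error are unknown, and the annotation release, use of strand and treatment of ambiguous reads were not given. The labels and the study's methods differ on strain and on library kit.

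TPM plus a pseudocount of 1 was taken to log2. Genes at 1 TPM or more in at least 5 libraries, 13578 in all, were fitted with limma 3.58.1 in R 4.3.3 as a mean for each of 12 conditions, with a mean-dependent prior. Tests were two-sided, with Benjamini-Hochberg adjustment over all genes tested and a threshold of 0.05. Single library measures used exact two-sided permutation tests. Summaries and figures used Python 3.11.15, pandas 2.3.3, numpy 2.4.6 and matplotlib 3.10.9. Gene positions come from a GENCODE annotation and promoter windows from RefSeq.

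Named genes were, as none was called, the 6 with the smallest unadjusted p in each direction, the most abundant member of each list described, the myosin heavy chains and genes the study names, and the 6 with the smallest p for the difference from mock mice. Other genes were chosen after their values were seen. The members and lists were chosen with earlier results of these data known. Alternatives were another pseudocount, no filter, other scalings, array weights, a replicate block, fits on fewer libraries, Dunn's test and leaving out each mouse. Leaving out both 8-week mice that stand apart, leaving out each mouse from the lists, the non-overlap counts, in mock mice too, and the number of genes at 1 TPM or more were chosen after seeing the data. Some items are not reported here.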

Additional observations from a re-analysis of the deposited data

Results flagged for a closer look

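For each value reported in a group of 5 mice, the gap between the most extreme mouse and its nearest neighbor was divided by the range of the group, and 36 values in 264 groups lay above Dixon's critical value of 0.71. Chance alone gives about 1 in 20 groups for normally distributed values, which TPM need not be. Some of the genes were chosen after their values were seen, among them genes in which 1 mouse stood apart. That rate is therefore no standard for the count of flags. In some groups, such as Cd3e at 8 weeks, all other mice were at 0, so any value above 0 was flagged. Many of the flagged values come from few mice and from genes of 1 cell type.

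Antibody genes in mouse 3 of the 8-week group account for many. There Igkc was at 2226 TPM, Igkv10-96 at 797 TPM, Ighg1 at 359 TPM, Igkv9-124 at 75.4 TPM and Igkv1-88 at 13.7 TPM. The same mouse was high in Cfd at 983 TPM, in Alb at 129 TPM, in Cd3e at 0.180 TPM and in Cd8a at 0.0709 TPM.

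Mouse 3 of the 4-week group was the high mouse of its own group for many of the same genes. Igkc was at 230.3 TPM, Ighm at 102 TPM, Jchain at 15.8 TPM, Ighg1 at 3.56 TPM, Igkv5-45 at 2.61 TPM, Igkv19-93 at 0.527 TPM, Igkv9-124 at 0.271 TPM and Cd8a at 0.0132 TPM. The summed B and plasma cell markers were at 361 TPM. Of the remaining antibody segments, Igkv5-45 at 75.9 TPM and Igkv4-74 at 22.5 TPM were high in mouse 1 of 8 weeks, Igkv1-88 at 0.284 TPM in mouse 1 of 4 weeks, and Igkv4-74 at 0.124 TPM in mouse 5 of 4 weeks.

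Mouse 5 of the 8-week group was high in Saa3 at 538 TPM, Adgre1 at 24.1 TPM and Capza1 at 26.8 TPM. Saa3 was also high in mouse 1 of 4 weeks, at 79.1 TPM. Mouse 5 of the 4-week group was low in Actn3, the alpha-actinin of fast fibers, at 27.4 TPM, in Gsn at 596 TPM and in Ndufa13 at 424 TPM.

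Single values were left in other mice. Cstf2t, a gene for RNA 3′ end processing, was listed at 0 TPM in mouse 1 of 8 weeks and at 18.8 to 21.5 TPM in the other 9. In mouse 2 of 8 weeks Per1 was low at 10.3 TPM and Ndufa4 at 640.1 TPM, while Cdh5 was high at 92.1 TPM. In mouse 4 of 8 weeks Iigp1 was low at 4.50 TPM. At 4 weeks Uqcr10 was high in mouse 4 at 992 TPM and Myh13 in mouse 2 at 0.584 TPM. The cause of these values was not tested.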

How the results depend on the processing

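No gene was called at an adjusted p under 0.05 between 8 and 4 weeks under any alternative run, with 1 exception. Without a filter on low values 2 genes were higher, Gm14285 at 0.22 (adjusted p = 0.000146) and Gm43140 at 0.15 (adjusted p = 0.0340). The smallest adjusted p was 0.0577 with array weights, 0.270 with the compared groups alone, 0.665 without 8 libraries of other groups that stand apart and 0.963 by Dunn's test. At an unadjusted p under 0.05 the counts ranged from 38 to 1165 higher and from 7 to 246 lower. The difference from mock mice had 0 genes in every setting, Dunn's test having no form for it. In mock mice, 1 gene (Gm20431, 1.79, adjusted p = 0.00157) was called with the compared groups alone. Between 6 and 4 weeks Gm31728 was called without a filter and Ppp1r13b with array weights (0.55, adjusted p = 0.0440), and between 8 and 6 weeks Gm31728, Gm14285 and Gm43140 were called without a filter.

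The count past the study's cutoffs, reported as 4, was 0 after median-ratio scaling and by Dunn's test and 1 after quantile normalization. It was 10 with array weights, 2 with a replicate block, 1 with the compared groups alone and 12 without the 8 libraries. It ranged from 0 to 23 when each mouse was left out, and was 1 without both 8-week mice that stand apart, 3 and 5. The non-overlap counts above were 69 after median-ratio scaling and 50 after quantile normalization. Those below were 188, 156 and, without the mitochondrial genes, 71.

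For cachectic mice the count called was 638 without 1 library that stands apart, 1892 without the 8 libraries, 555 after median-ratio scaling, 714 after quantile normalization and 591 without the mitochondrial genes. The cachectic against non-cachectic difference had 15, 97, 7 and 5 genes under the first 4 of these.

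The mean number of genes at 1 TPM or more differed by 169.4 (exact permutation p = 0.0714) after median-ratio scaling and 184.4 (exact permutation p = 0.0635) without the mitochondrial genes.

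Among the named genes followed through the alternatives, 5 changed sign, and not every named gene was followed. Arrdc2 was -0.0176 after median-ratio scaling, -0.0263 after quantile normalization, -0.16 without both mice and -0.33 to 0.43 when each mouse was left out. Capza1 was -0.0188, -0.0142, -0.0269 and -0.0229 to 0.0663 in the same order. Leaving out each mouse gave -0.0493 to 0.52 for Ddit4, -0.0579 to 0.22 for Myh1 and -0.63 to 0.0945 for Myh4, and array weights gave -0.0276 for Myh1. The causes were not tested. Depth, unknown here, limits the genes near 1 TPM or under it, where a difference may rest on few reads.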
